A study of Mus musculus with 6 samples.

Results

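The genes described here encode the machinery of glycolysis and of the response to low oxygen, 42 in all, out of 23381 gene symbols in the deposited RPKM table (reads per kilobase of transcript, scaled to the reads of the library). They were taken from a written list of glycolytic and hypoxia-induced genes, and all 42 were found in the table under their listed symbols. The samples were mammary tumours from Balb/c mice that were 10 weeks old, grown from 500000 cells of the murine breast cancer line 4T1, itself of Balb/c origin, placed in the inguinal mammary fat pad. Once tumours had formed, mice received Vismodegib, an inhibitor of the Hedgehog signal transducer Smoothened, at 2 mg per mouse (3 libraries), or DMSO, the vehicle (3 libraries). Both were given 3 times per week for 3 weeks. No other allele or agent was named, and all tumours come from 1 cell line. RNA was extracted from whole tumours, so host cells are included, and a lower value from fewer cells of a type cannot be told apart from one due to less RNA per cell. The labels do not state that each library came from its own animal, so each p-value reflects only how far these samples spread, which may be technical. A tumour below means the sample of 1 library, and differences between tumours carry the same limit.

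Glycolysis breaks glucose down to pyruvate in the cytosol, and many tumours send much of that pyruvate on to lactate, which leaves the cell through monocarboxylate transporters. When oxygen is low, prolyl hydroxylases of the Egln family stop marking the alpha subunits Hif1a and Epas1 for capture by the Vhl protein. The stabilised subunits pair with Arnt and bind a short core motif near genes for glucose uptake, glycolysis, acid export, mitophagy, vessel growth and collagen modification. Solid tumours often hold poorly perfused regions in which this response is active. Because the alpha subunits are controlled mainly as proteins, their transcripts alone do not report pathway activity.

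The core motif was searched in the promoter windows that RefSeq's GRCm38.p6 annotation gives for these genes, from 250 bases before to 50 bases after each gene start. It was spelled as ACGTG or GCGTG and searched on both strands, so that the palindrome CACGTG counts as a match on each strand. Windows were matched for 37 of the 42 genes. Either spelling was present in at least 1 window for 33 of the 37 genes (89.2%), against 67.6% of the 8838 tested genes with a window and 46.7% of all 27025 genes with one. ACGTG alone was present for 26 of the 37 genes (70.3%), against 29.5% of tested genes and 21.8% of all. A gene with more windows has more places for a match. Counted by window, either spelling was in 80.4% of 51 windows, against 62.0% of the 11212 windows of tested genes. By window ACGTG was in 56.9%, against 25.7%. The list was written for glycolytic and hypoxia-induced genes, so these shares are no test of it. A match is a run of letters, and binding was not measured. The sequences below show the first listed window of 5 example genes, all known HIF targets that ranged widely across the tumours. They were picked from a larger number and all carry matches. Genes that ranged more widely than Pgk1 and are not shown include Adm, with 2 matches, and Aldoa, with none in its first window. P4ha2 follows, which was higher in every treated library than in any control. Vhl is shown last as a gene of the pathway with no match in its window. Each is printed from 5′ to 3′ on the strand of the gene, with matches to the core motif on either strand in capitals.
Slc2a1 (chr4:119108495-119108794, plus strand): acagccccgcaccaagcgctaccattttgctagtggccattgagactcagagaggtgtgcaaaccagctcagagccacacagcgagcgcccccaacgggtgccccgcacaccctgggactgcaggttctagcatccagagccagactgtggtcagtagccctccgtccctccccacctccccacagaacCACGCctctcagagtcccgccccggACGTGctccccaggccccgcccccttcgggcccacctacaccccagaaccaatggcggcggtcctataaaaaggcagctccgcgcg
Pgk1 (chrX:106186850-106187149, plus strand): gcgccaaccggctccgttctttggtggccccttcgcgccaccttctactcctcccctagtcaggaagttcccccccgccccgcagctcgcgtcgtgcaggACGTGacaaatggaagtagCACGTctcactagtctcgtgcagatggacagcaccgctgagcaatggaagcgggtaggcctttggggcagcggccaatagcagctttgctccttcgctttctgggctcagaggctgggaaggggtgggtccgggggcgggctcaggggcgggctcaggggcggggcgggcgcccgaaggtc
Ldha (chr7:46845554-46845853, plus strand): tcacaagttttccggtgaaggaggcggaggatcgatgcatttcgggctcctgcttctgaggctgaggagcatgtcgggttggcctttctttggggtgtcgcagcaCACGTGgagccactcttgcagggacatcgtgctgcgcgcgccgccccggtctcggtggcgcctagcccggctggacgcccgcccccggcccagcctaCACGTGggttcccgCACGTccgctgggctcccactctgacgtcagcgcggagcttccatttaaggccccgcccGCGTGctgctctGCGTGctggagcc
Bnip3 (chr7:138909457-138909756, minus strand): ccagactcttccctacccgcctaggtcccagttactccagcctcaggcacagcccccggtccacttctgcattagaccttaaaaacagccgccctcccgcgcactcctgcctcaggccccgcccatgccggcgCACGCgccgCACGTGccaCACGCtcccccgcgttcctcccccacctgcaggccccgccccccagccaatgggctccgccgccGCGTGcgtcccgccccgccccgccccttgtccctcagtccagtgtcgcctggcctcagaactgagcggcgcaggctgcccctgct
Ankrd37 (chr8:45999801-46000100, minus strand): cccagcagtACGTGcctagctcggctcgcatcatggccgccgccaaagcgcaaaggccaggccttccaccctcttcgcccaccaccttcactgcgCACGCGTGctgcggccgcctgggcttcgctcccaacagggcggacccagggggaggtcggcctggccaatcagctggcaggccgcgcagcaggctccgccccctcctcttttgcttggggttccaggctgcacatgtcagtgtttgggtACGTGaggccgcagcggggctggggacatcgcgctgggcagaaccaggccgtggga
P4ha2 (chr11:54100674-54100973, plus strand): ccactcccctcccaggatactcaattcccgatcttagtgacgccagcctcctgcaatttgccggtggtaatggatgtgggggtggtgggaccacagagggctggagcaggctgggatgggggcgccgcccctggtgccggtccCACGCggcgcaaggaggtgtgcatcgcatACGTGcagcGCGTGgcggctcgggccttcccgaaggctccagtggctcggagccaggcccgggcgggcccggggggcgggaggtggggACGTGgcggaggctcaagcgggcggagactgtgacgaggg
Vhl (chr6:113623744-113624043, plus strand): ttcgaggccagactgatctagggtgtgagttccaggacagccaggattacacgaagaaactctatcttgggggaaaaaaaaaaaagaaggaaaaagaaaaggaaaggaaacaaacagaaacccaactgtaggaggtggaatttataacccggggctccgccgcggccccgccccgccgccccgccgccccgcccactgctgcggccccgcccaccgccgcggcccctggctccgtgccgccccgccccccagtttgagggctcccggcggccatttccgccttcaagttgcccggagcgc

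The Ldha window held 7 matches, more than any other first window here, and 4 of them form a pair of CACGTG palindromes. The Pgk1 window held 2 matches and the Slc2a1 window 2, while Bnip3 held 5, and Ankrd37 and P4ha2 held 4 each. In Ankrd37, 2 of the 4 matches overlap.

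**Figure D1:**
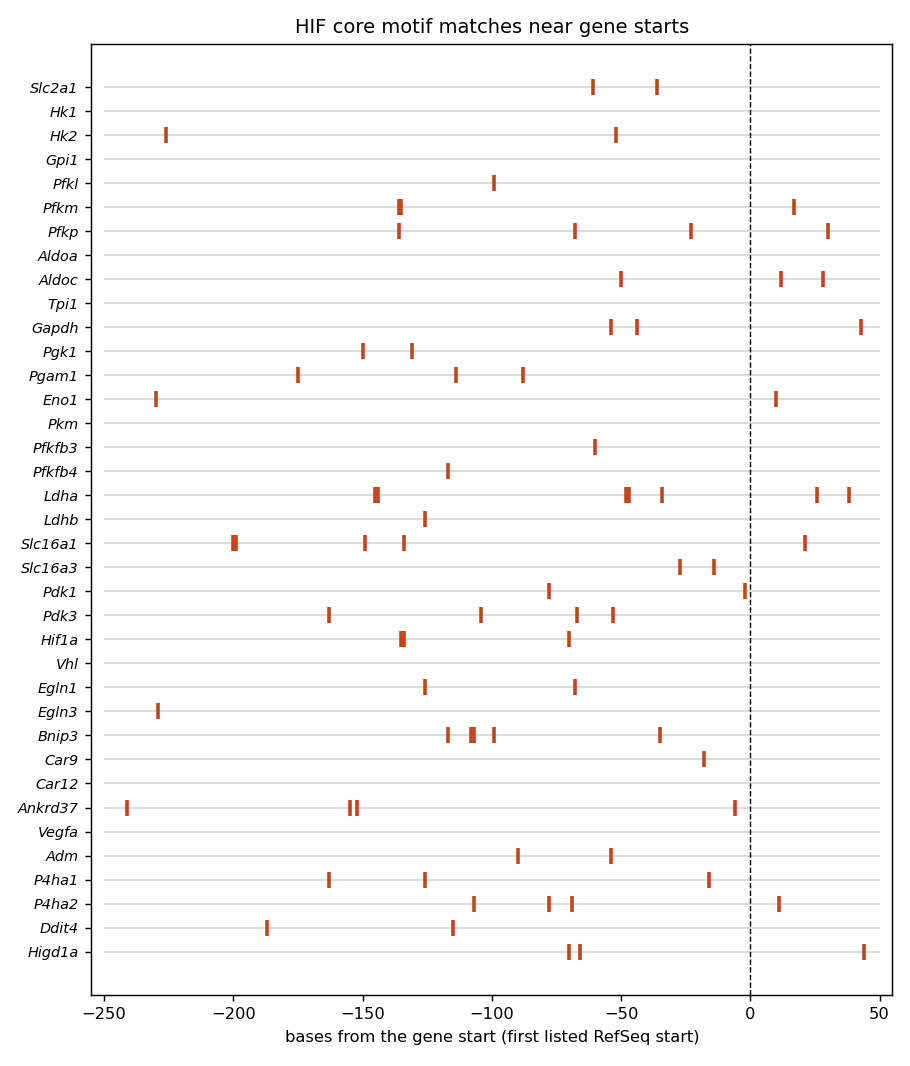
Positions of core motif matches on either strand (red ticks) in the first listed RefSeq window of 37 genes, in bases from the gene start (dashed line). Most genes carry matches in this window, 7 of them in Ldha, and Aldoa, Car12, Gpi1, Hk1, Pkm, Tpi1, Vegfa and Vhl carry none.

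Across all genes, 11818 averaged 0.5 RPKM or more and were compared between Vismodegib and DMSO with limma on log2(RPKM + 0.5). No gene passed at an adjusted p under 0.05 (0% called, smallest adjusted p = 1), and 266 genes (2.25%) had an unadjusted p under 0.05. Depth recovered from the steps of low values was 41600000 to 58000000 reads per library in Vismodegib and 34800000 to 40500000 in DMSO. The tumour epithelium was well represented, with 7 epithelial markers summing to 2552 to 2633 RPKM in Vismodegib and 1609 to 2698 RPKM in DMSO, none of them at 0. Skeletal muscle transcripts were also present in all libraries.

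Of the 42 glycolysis and hypoxia genes, 41 passed the filter and 0 were called, none even at an unadjusted p under 0.05. The smallest unadjusted p from limma was 0.137, for P4ha2. Vismodegib minus DMSO differences lay above 0 in 22 of the 41 genes (53.7%), against 58.4% of all genes tested. Their median was 0.01 on the log2 scale, beside 0.06 for all genes tested, and single genes ran from -0.66 for Ankrd37 to 0.48 for Pfkm. The groups did not overlap in 1 of the 41 genes, P4ha2, which was higher in Vismodegib. Among all genes tested, 5.03% had groups that did not overlap, 4.29% higher and 0.745% lower, so 1 of 41 is not above the background. The direction of the median followed single libraries, at 0.25 without Vismodegib replicate 3 and -0.27 without DMSO replicate 1, and the number above 0 was 17 of 41 with median-ratio scaling.

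**Figure D2:**
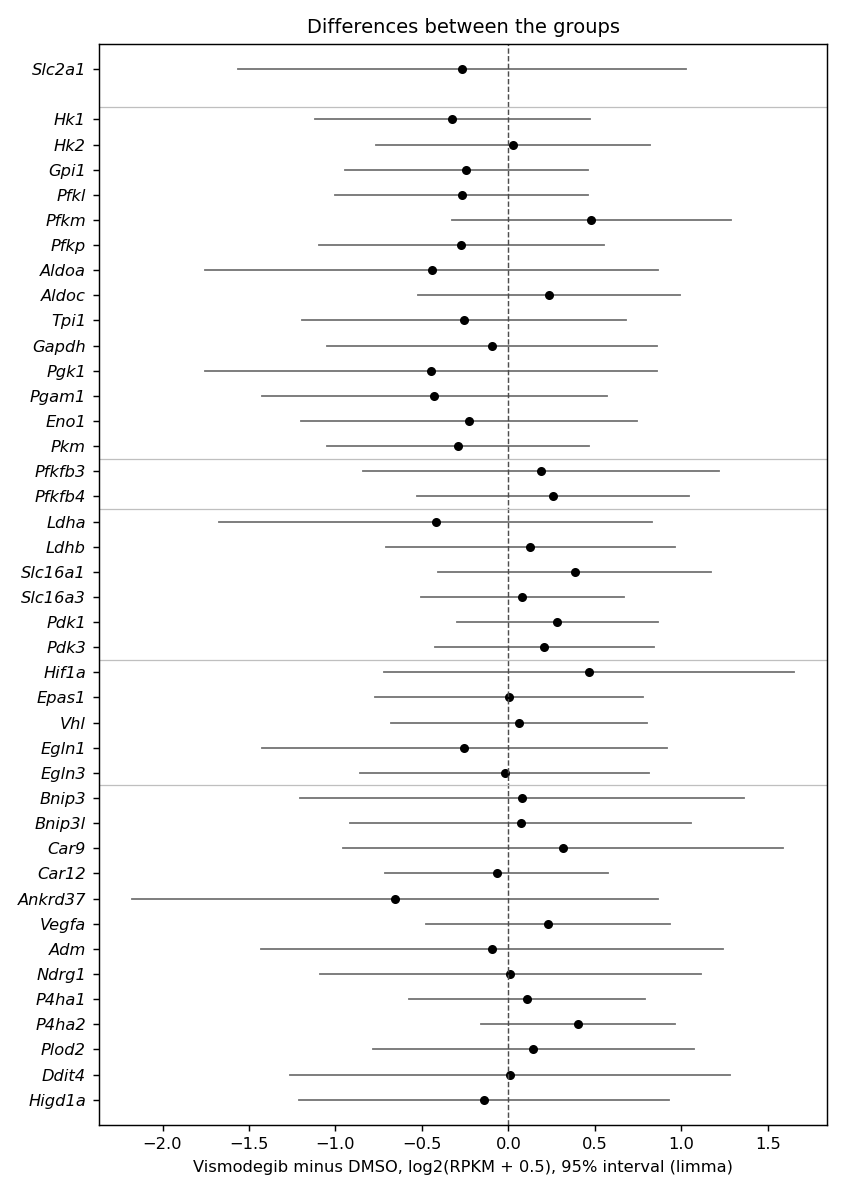
Difference between Vismodegib and DMSO for the 41 tested genes on the log2(RPKM + 0.5) scale (points) with 95% intervals from limma (lines), in the order transporters, enzymes, regulators, lactate and pyruvate genes, oxygen sensing and other hypoxia-induced genes. Every interval includes 0, from Ankrd37 at -0.66 to Pfkm at 0.48.

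The levels ranged widely among libraries of the same treatment. For these genes the median ratio of the highest to the lowest library was 2.03 in Vismodegib and 2.42 in DMSO. For all genes tested it was 1.56 in Vismodegib and 1.86 in DMSO. Vismodegib replicate 3 was the lowest of the 6 libraries in 12 of the 41 genes (29.3%, against 19.2% of all genes) and DMSO replicate 1 in 18 (43.9%, against 31.5%). The highest library was Vismodegib replicate 1 in 14 genes (34.1%, against 26.9%) and DMSO replicate 3 in 16 (39.0%, against 14.4%). Vismodegib replicate 3 was below Vismodegib replicate 1 in all 41 genes, with a median of -0.82 on the log2 scale, where 27.9% of all genes were higher in replicate 3 and the median was -0.29. DMSO replicate 3 was above DMSO replicate 1 in 34 of the 41 genes (82.9%), with a median of 0.91, beside 64.5% and 0.20 for all genes tested. Each treatment group contained both high and low libraries for these genes. Genes at 0 RPKM in the whole table numbered 4052, 4336 and 5313 in Vismodegib, against 5134, 4650 and 4198 in DMSO. Vismodegib replicate 3 and DMSO replicate 1 thus had the most. All RPKM values summed to 385764, 374602 and 367695 in Vismodegib, against 324967, 432898 and 346461 in DMSO. The part of these library differences in the low values was not tested. These are values of single libraries and no test was made of them.

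**Figure D3:**
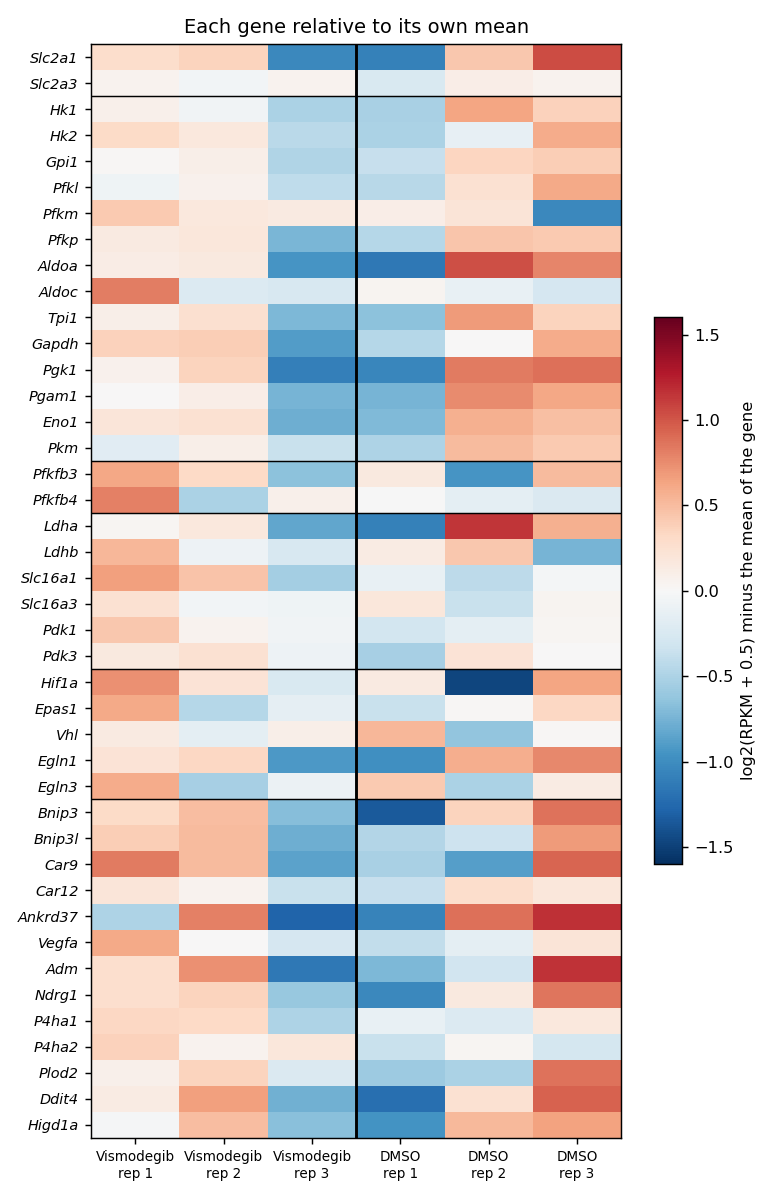
Heat map of log2(RPKM + 0.5) minus the mean of each gene over the 6 libraries, for all 42 genes (rows, by role) in Vismodegib (left of the line) and DMSO (right). Vismodegib replicate 3 and DMSO replicate 1 are blue for most glycolytic enzymes and hypoxia-induced genes, and DMSO replicate 3 is red for most hypoxia-induced genes.

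Slc2a1, the widespread glucose transporter, was the most abundant of the 5 glucose transporter genes counted. Slc2a1 (ENSMUSG00000028645.11) stood at 37.8, 39.8 and 15.0 RPKM in Vismodegib, against 14.5, 42.2 and 64.6 RPKM in DMSO, with libraries here and below in the order of their replicate numbers. The lowest tumour of each group lay at almost the same level, and the highest 2 values in all were controls. The log2 difference was -0.27 (95% interval from -1.56 to 1.03, limma, adjusted p = 1). Slc2a3, a high-affinity transporter best known from neurons, was at 0.242, 0.191 and 0.240 RPKM in Vismodegib and at 0.103, 0.265 and 0.239 RPKM in DMSO. It did not pass the filter, and its exact two-sided permutation p was 0.8, where 3 against 3 libraries cannot go below 0.1. These low values rest on about 24.2 to 87.0 reads per library. Slc2a1 made up 89.0%, 92.2% and 72.4% of the summed RPKM of Slc2a1, Slc2a3, Slc2a4, Slc2a6 and Slc2a8 in Vismodegib, against 79.3%, 88.5% and 93.0% in DMSO, shares that overlapped. Over Slc2a1, Slc2a3 and Slc2a4 only, its share was 97.6%, 98.2% and 97.5% in Vismodegib and 98.5%, 98.5% and 99.1% in DMSO, without overlap. There Slc2a3 and Slc2a4 were at most 0.684 RPKM in any library, and the shares were not tested.

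The 14 glycolytic enzymes act at the steps from glucose to pyruvate. Their differences lay above 0 in 3 genes and below 0 in 11, with a median of -0.26, and none was called. Summed, they took up 0.386%, 0.443% and 0.244% of the RPKM total in Vismodegib replicates 1, 2 and 3, against 0.273%, 0.531% and 0.633% in DMSO replicates 1, 2 and 3. The lowest share was in a treated tumour and the highest in a control, with the other libraries of the groups interleaved. The wider set of 23 glycolytic genes, transporters and lactate genes included, had a median of -0.23 that was 0.14 without Vismodegib replicate 3.

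At the entry steps, Hk1, the hexokinase found in most tissues, was at 5.39, 4.88 and 3.43 RPKM in Vismodegib, against 3.39, 8.19 and 6.73 RPKM in DMSO (log2 difference -0.32, 95% interval from -1.12 to 0.47). Hk2, the hexokinase that tumours often induce, averaged 5.48 ± 1.51 RPKM in Vismodegib and 5.53 ± 2.40 RPKM in DMSO (SD, n = 3 each). The pair was expressed at similar RPKM, with Hk2 at 38.3% to 47.3% of the summed RPKM of the hexokinase genes in Vismodegib and 27.9% to 40.8% in DMSO. Gpi1, which converts glucose phosphate to fructose phosphate, was at 71.0, 74.9 and 49.8 RPKM in Vismodegib, against 53.9, 88.9 and 91.7 RPKM in DMSO. Its groups overlapped, and the log2 difference was -0.24.

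Phosphofructokinase commits sugar to glycolysis, and the liver-type gene Pfkl supplied most of its RNA. Pfkl was at 67.1, 74.1 and 52.9 RPKM in Vismodegib, against 51.8, 83.3 and 107 RPKM in DMSO. The muscle-type gene Pfkm was at 8.13, 6.73 and 6.61 RPKM in Vismodegib, against 6.45, 6.93 and 2.66 RPKM in DMSO. Pfkm thus stood apart only in DMSO replicate 3, and the groups overlapped through DMSO replicate 2. Its log2 difference of 0.48 (95% interval from -0.33 to 1.29, limma, adjusted p = 1) was 0.09 without DMSO replicate 3. Library weights estimated by limma gave DMSO replicate 3 a weight of 7.28 and each other control 0.32. With these weights the Pfkm difference was 1.17 and was called by limma (adjusted p = 0.0322), in a fit that called 420 of 11818 genes. Under the other alternatives its adjusted p from limma was 0.582 to 1. The skeletal muscle markers were also lowest in DMSO replicate 3, at 182, 124 and 86.0 RPKM in sum in Vismodegib and 23.3, 188 and 10.5 RPKM in DMSO. Acta1, skeletal muscle actin, was at 38.5, 27.7 and 21.1 RPKM in Vismodegib and at 2.76, 57.6 and 0.676 RPKM in DMSO, and of the 10 markers only Pvalb was at 0 in any library, DMSO replicate 3. Their part in the Pfkm values was not tested. Pfkp, the platelet-type gene, averaged 1.56 ± 0.649 RPKM in Vismodegib and 1.99 ± 0.780 RPKM in DMSO.

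Below phosphofructokinase several enzymes had a similar pattern across tumours. Pgk1, phosphoglycerate kinase, which makes the first ATP of the pathway, was at 278, 341 and 124 RPKM in Vismodegib, against 128, 472 and 490.4 RPKM in DMSO. Pgam1, phosphoglycerate mutase, was at 144, 155 and 85.4 RPKM in Vismodegib, against 85.9, 244 and 222 RPKM in DMSO. In both genes DMSO replicates 2 and 3 exceeded every treated tumour, while DMSO replicate 1 lay beside the lowest treated one. Their log2 differences were -0.45 for Pgk1 and -0.43 for Pgam1, with 95% intervals from -1.76 to 0.86 and from -1.43 to 0.57. Aldoa, the aldolase of muscle and many other tissues, was likewise highest in DMSO replicates 2 and 3, at 231, 238 and 111 RPKM in Vismodegib and 95.8, 436 and 367 RPKM in DMSO. The other aldolase, Aldoc, was far lower and highest in Vismodegib replicate 1, at 16.8, 7.93 and 7.66 RPKM in Vismodegib and 9.53, 8.51 and 7.58 RPKM in DMSO.

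Pkm, the pyruvate kinase that ends the pathway, had the highest mean of the 14 enzymes. It was at 309, 374 and 272 RPKM in Vismodegib, against 248, 498 and 466 RPKM in DMSO (log2 difference -0.29, 95% interval from -1.05 to 0.47). Its spread of 2.01 from highest to lowest library was narrower than that of Aldoa, at 4.55. Tpi1, triose phosphate isomerase, averaged 122 ± 39.4 RPKM in Vismodegib and 150.0 ± 63.3 RPKM in DMSO, and Gapdh, the dehydrogenase often used as a loading control, averaged 61.2 ± 25.9 RPKM in Vismodegib and 63.3 ± 23.1 RPKM in DMSO. Gapdh was not constant here, with a ratio of 2.82 between its highest and lowest library. Enolase values are uncertain because Eno1 has a nearly identical copy, Eno1b, in the table. Eno1 was at 140.4, 145 and 70.7 RPKM in Vismodegib and 74.8, 182 and 170.2 RPKM in DMSO, and the sum of Eno1 and Eno1b was at 246, 249 and 115 RPKM in Vismodegib and 117, 421 and 298 RPKM in DMSO. The sum kept the order of a low Vismodegib replicate 3 and a low DMSO replicate 1. In all, 12 of the 42 genes had another annotated gene at 95% identity or more over at least 50% of that gene's transcript. For 9 of these 12 genes a copy was in the table, and outside Eno1 the copies there averaged at most 1.45 RPKM. How reads shared with copies outside the table, such as those of Gapdh, were assigned is not known.

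**Figure D4:**
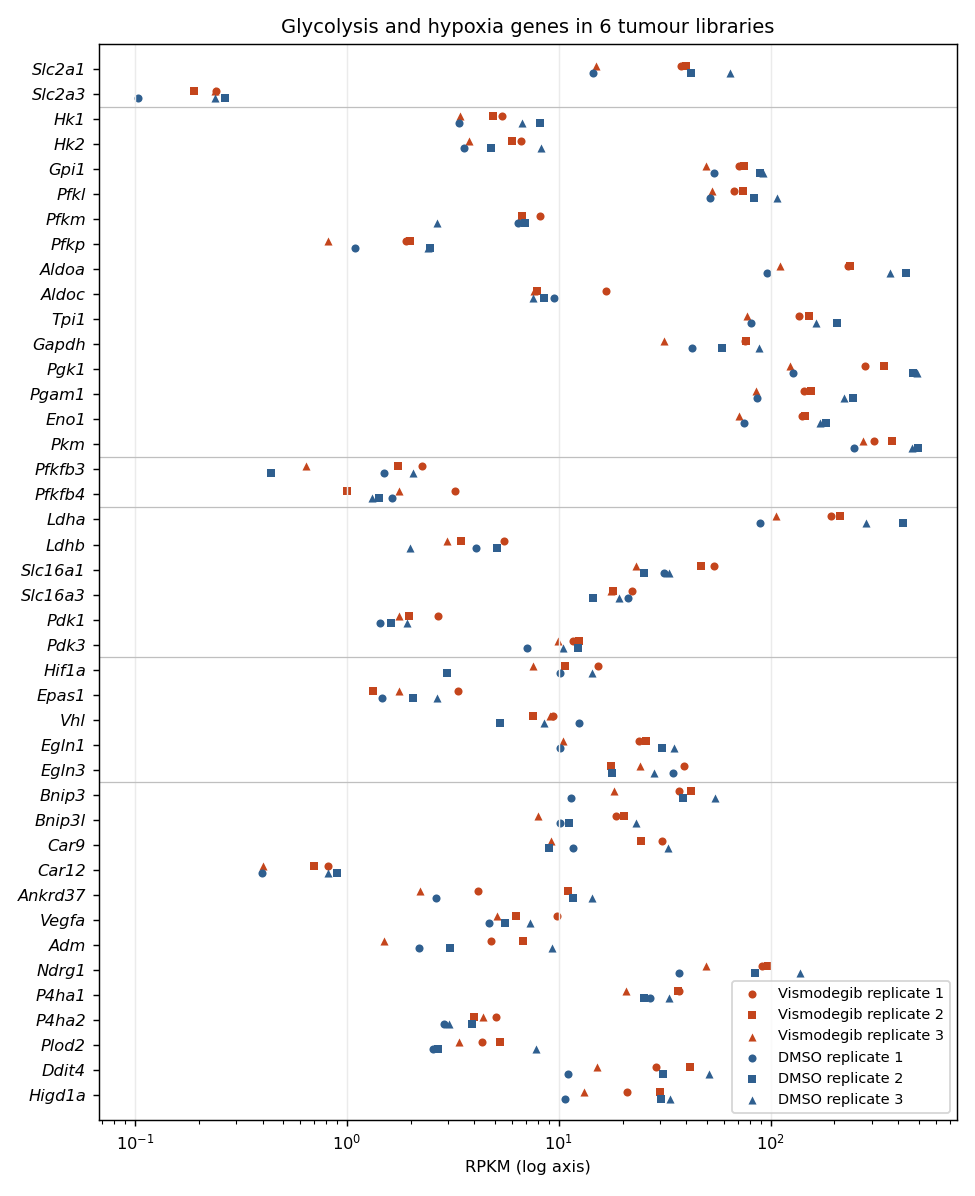
RPKM (log axis) of all 42 genes in the 3 Vismodegib libraries (red, upper row of each gene) and the 3 DMSO libraries (blue, lower row), with the replicate shown by the shape of the point. Slc2a3 is the lowest gene, at 0.103 to 0.265 RPKM, Pkm and Pgk1 reach the highest values, and the groups overlap in every gene except P4ha2.

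The bifunctional regulators Pfkfb3 and Pfkfb4 make and remove the sugar phosphate that activates phosphofructokinase. Pfkfb4 was at 3.24, 1.0 and 1.76 RPKM in Vismodegib, against 1.63, 1.42 and 1.32 RPKM in DMSO, so that the treated tumours held both the highest and the lowest value. Pfkfb3 was at 2.26, 1.74 and 0.641 RPKM in Vismodegib and 1.50, 0.437 and 2.05 RPKM in DMSO. Both differences lay above 0, at 0.26 for Pfkfb4 and 0.19 for Pfkfb3, and neither was called.

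At the lactate branch, Ldha, the lactate dehydrogenase subunit that favours lactate production, was at 193, 213 and 106 RPKM in Vismodegib, against 89.0, 420.0 and 281 RPKM in DMSO. Its controls spanned a ratio of 4.72 and enclosed all treated values. The log2 difference was -0.42 (95% interval from -1.68 to 0.83), and 0.05 without DMSO replicate 2. Ldhb, the subunit more abundant in oxidative tissues such as heart, averaged 3.98 ± 1.36 RPKM in Vismodegib and 3.72 ± 1.59 RPKM in DMSO, so that Ldha held 97.2%, 98.4% and 97.3% of the RPKM of the pair in Vismodegib and 95.6%, 98.8% and 99.3% in DMSO.

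The lactate transporters did not follow Ldha. Slc16a1, the widespread monocarboxylate transporter, was at 53.9, 47.1 and 23.2 RPKM in Vismodegib, against 31.4, 25.3 and 33.3 RPKM in DMSO. Treated replicates 1 and 2 were above all controls and replicate 3 was below them, and the log2 difference was 0.38 (95% interval from -0.41 to 1.17). Slc16a3, the transporter best known for lactate export from glycolytic cells, ranged less than any other of these genes, from 17.7 to 22.2 RPKM in Vismodegib and 14.5 to 21.3 RPKM in DMSO. Pdk1, a kinase that blocks pyruvate dehydrogenase and so keeps pyruvate out of mitochondria, was at 2.69, 1.96 and 1.77 RPKM in Vismodegib, against 1.43, 1.62 and 1.92 RPKM in DMSO (log2 difference 0.28, 95% interval from -0.30 to 0.86). The groups overlapped between Vismodegib replicate 3 and DMSO replicate 3. Pdk3, a kinase of the same family that HIF also induces, was the more abundant, with 71.9% to 80.7% of the RPKM of the Pdk genes in Vismodegib and 74.8% to 81.5% in DMSO, and averaged 11.4 ± 1.33 RPKM in Vismodegib and 9.96 ± 2.65 RPKM in DMSO.

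Among the oxygen sensing genes, Hif1a, the main HIF alpha subunit in most cells, was at 15.4, 10.7 and 7.59 RPKM in Vismodegib, against 10.1, 2.97 and 14.4 RPKM in DMSO. The lowest value was in DMSO replicate 2, and the log2 difference of 0.47 (95% interval from -0.72 to 1.65) was -0.15 without that library. DMSO replicate 2 was at the same time among the highest libraries for Ldha, Aldoa and Pgk1. Epas1, the alpha subunit typical of endothelium and some epithelia, was at 3.34, 1.33 and 1.77 RPKM in Vismodegib, against 1.46, 2.06 and 2.67 RPKM in DMSO, a log2 difference of 0.003. Vhl, the substrate receptor of the ubiquitin ligase that destroys HIF alpha, was at 9.39, 7.55 and 9.06 RPKM in Vismodegib, against 12.4, 5.26 and 8.55 RPKM in DMSO. Neither Epas1 nor Vhl separated the groups.

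The prolyl hydroxylases are both sensors and HIF targets. Egln3 was at 39.1, 17.6 and 24.1 RPKM in Vismodegib, against 34.5, 17.9 and 28.2 RPKM in DMSO. Egln1, the main oxygen sensor of most cells, was at 23.8, 25.7 and 10.5 RPKM in Vismodegib, against 10.1, 30.7 and 35.1 RPKM in DMSO. The 2 genes ordered the tumours differently. Egln1 was low in both Vismodegib replicate 3 and DMSO replicate 1. These libraries also had the lowest medians over the 14 glycolytic enzymes, at -0.62 and -0.50 from the gene means on the log2 scale. Egln3 instead had DMSO replicate 1 as its highest control. Their log2 differences were -0.25 for Egln1 and -0.02 for Egln3.

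The 13 other hypoxia-induced genes had differences above 0 in 9 and below 0 in 4, with a median of 0.07. With Egln1 and Egln3 added, the median was 0.01, and it was 0.38 without Vismodegib replicate 3, 0.39 without DMSO replicate 3 and -0.27 without DMSO replicate 1. Within DMSO, these 15 genes set replicate 3 apart from replicate 2 where the glycolytic enzymes did not. DMSO replicate 3 was above DMSO replicate 2 in 13 of the 15 hypoxia-induced genes (median 0.51 on the log2 scale), in 5 of the 14 glycolytic enzymes (median -0.10) and in 47.8% of all genes tested (median -0.03). This difference between gene groups rests on 1 library against another and was not tested.

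**Figure D5:**
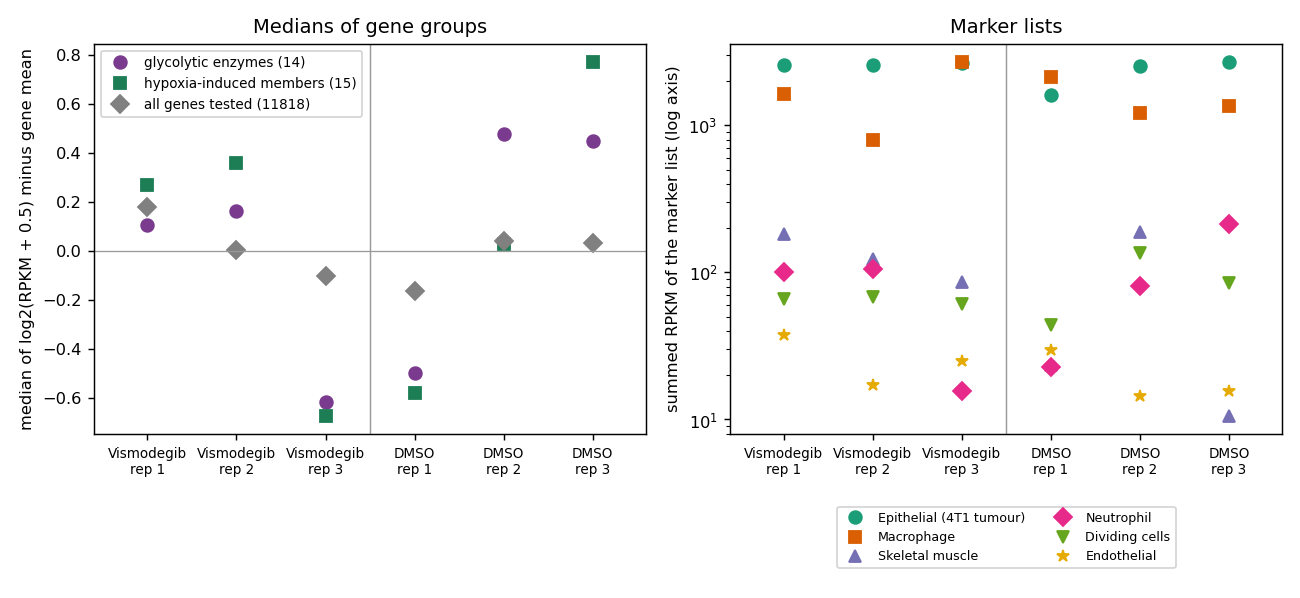
Left, the median over each gene group of log2(RPKM + 0.5) minus the mean of the gene, by library, for 14 glycolytic enzymes, 15 hypoxia-induced genes and all genes tested. Right, summed RPKM (log axis) of marker lists in the same libraries, where Vismodegib replicate 3 and DMSO replicate 1 have the lowest gene group medians, the lowest neutrophil sums (15.5 and 22.7) and the highest macrophage sums (2707 and 2129.9, of which C1qa was 2284 and 1722).

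Car9, a surface carbonic anhydrase that serves as a marker of hypoxic tumour cells, was at 30.6, 24.5 and 9.15 RPKM in Vismodegib, against 11.7, 9.04 and 32.9 RPKM in DMSO. Each group held high and low tumours, and the log2 difference was 0.32 (95% interval from -0.96 to 1.59). Adm, the vasodilator peptide adrenomedullin, was at 4.78, 6.81 and 1.50 RPKM in Vismodegib and 2.18, 3.07 and 9.34 RPKM in DMSO. Vegfa, the growth factor for vessels, was at 9.86, 6.29 and 5.11 RPKM in Vismodegib, against 4.67, 5.56 and 7.33 RPKM in DMSO, a log2 difference of 0.23. In all of Car9, Adm and Vegfa, Vismodegib replicate 3 was the lowest treated tumour and DMSO replicate 3 the highest control. Car12, the related carbonic anhydrase, averaged only 0.641 ± 0.214 RPKM in Vismodegib and 0.703 ± 0.269 RPKM in DMSO and rests on an estimated 55.3 to 126.6 reads per library.

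Ndrg1, a stress-induced gene, had the highest level among the other hypoxia-induced genes, at 91.5, 96.8 and 49.8 RPKM in Vismodegib and 36.8, 84.3 and 138 RPKM in DMSO. Bnip3, a mitophagy receptor, was at 36.9, 42.3 and 18.3 RPKM in Vismodegib, against 11.4, 38.4 and 54.8 RPKM in DMSO. Ankrd37, a small ankyrin-repeat protein, had the largest difference of the 41 genes by size and also the widest range. It was at 4.17, 11.0 and 2.22 RPKM in Vismodegib, against 2.64, 11.7 and 14.3 RPKM in DMSO, with a log2 difference of -0.66 (95% interval from -2.18 to 0.87, limma, adjusted p = 1) and a ratio of 6.46 between the highest and lowest library. For Ndrg1 and Bnip3 both the lowest and the highest library were controls, and for Ankrd37 the lowest was Vismodegib replicate 3. Ddit4, an inhibitor of mTOR signalling, Higd1a, a mitochondrial inner membrane protein, and Bnip3l, a relative of Bnip3, had log2 differences of 0.01, -0.14 and 0.07. In Ddit4 and Higd1a DMSO replicate 1 was the lowest library, and in all of Ddit4, Higd1a and Bnip3l DMSO replicate 3 was the highest.

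P4ha1 and P4ha2, which modify collagen, ranged less than most, with ratios of 1.79 and 1.75 between the highest and lowest library. P4ha2, a catalytic subunit of the prolyl hydroxylase that stabilises the collagen helix, was at 5.04, 3.99 and 4.40 RPKM in Vismodegib, against 2.87, 3.89 and 3.05 RPKM in DMSO. Every treated tumour was above every control, by a narrow margin between Vismodegib replicate 2 and DMSO replicate 2. The log2 difference of 0.41 (SE 0.25, 95% interval from -0.16 to 0.97) was not called by limma (adjusted p = 1) and ran from 0.33 to 0.52 when single libraries were left out. P4ha1, a related isoform, averaged 31.5 ± 9.33 RPKM in Vismodegib and 28.4 ± 4.15 RPKM in DMSO. Plod2, a collagen lysyl hydroxylase, averaged 4.34 ± 0.966 RPKM in Vismodegib and 4.34 ± 2.99 RPKM in DMSO. Fibroblast markers, 7 in all, summed to 131, 74.8 and 183 RPKM in Vismodegib and 61.9, 77.0 and 63.4 RPKM in DMSO. Their part in the P4ha2 values was not tested.

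Other cell types also differed between the tumours that stood high and low for glycolysis. The 7 macrophage markers summed to 1626, 793 and 2707 RPKM in Vismodegib and 2129.9, 1215 and 1353 RPKM in DMSO. The 7 neutrophil markers, of which Ly6g and Mmp8 were at 0 in some libraries, summed to 101, 106 and 15.5 RPKM in Vismodegib and 22.7, 80.7 and 213 RPKM in DMSO. Vismodegib replicate 3 and DMSO replicate 1, 1 or the other of which was the lowest library for most glycolytic enzymes, had the lowest neutrophil sums and the lowest levels of 5 of the 7 neutrophil markers (S100a8, S100a9, Cxcr2, Retnlg and Mmp8). Their macrophage sums were the highest, but most of each was C1qa, a complement subunit, at 1212, 606 and 2284 RPKM in Vismodegib and 1722, 809.6 and 1010.0 RPKM in DMSO. The other macrophage markers did not share 1 order, and Cd68 and Mrc1 were lowest in Vismodegib replicate 3. The epithelial sum was low only in DMSO replicate 1, at 1609 RPKM, and stood at 2633 RPKM in Vismodegib replicate 3. Most of each sum was Krt8 and Krt18, and the single markers did not share 1 order. Krt7 and Cldn4 were lowest in DMSO replicate 2 and the others in DMSO replicate 1. Among treated libraries, Vismodegib replicate 3 was lowest for Epcam, Cdh1 and Krt7, and highest for Krt8 and Cldn4. The 7 markers of dividing cells summed to 66.2, 67.8 and 61.1 RPKM in Vismodegib and 44.1, 135 and 85.1 RPKM in DMSO. Endothelial markers summed to 37.3, 17.2 and 24.8 RPKM in Vismodegib and 29.8, 14.5 and 15.6 RPKM in DMSO. The 9 transcripts of the mitochondrial genome summed to 12810.1, 11218 and 6507 RPKM in Vismodegib and 7921, 4509 and 5247 RPKM in DMSO. The part of these cell types and of mitochondrial RNA in the glycolysis and hypoxia values was not tested.

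A further 88 genes of the same pathways, other isoforms, pyruvate handling, side branches, HIF partners and other hypoxia-induced genes, were counted beside the listed ones. Of these, 71 were tested, 34 with differences above 0 and 37 below, with a median of -0.002. None was called by limma (smallest unadjusted p = 0.0085), 2 had an unadjusted p under 0.05, against 2.25% of all genes tested, and 5 of the 71 were higher in Vismodegib without overlap, against 4.29% of all genes tested. Bhlhe41, a hypoxia-induced transcriptional repressor, had the smallest p. It was at 15.6, 11.7 and 11.9 RPKM in Vismodegib, against 7.53, 2.70 and 6.55 RPKM in DMSO, a log2 difference of 1.25 (95% interval from 0.41 to 2.09, adjusted p = 1). Every treated tumour was above every control for Bhlhe41. The others without overlap were Mpc2, Pdhb, Rbx1 and Loxl2, with log2 differences of 0.53, 0.13, 0.36 and 0.46, of which Pdhb, Rbx1 and Loxl2 are named because of that pattern, after their values were seen.

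Igfbp3, a secreted binder of insulin-like growth factors that hypoxia can induce, was at 138, 71.5 and 262 RPKM in Vismodegib and 113, 40.4 and 35.5 RPKM in DMSO, with overlap. Pgam2, the muscle isoform of phosphoglycerate mutase, was at 9.98, 4.43 and 4.23 RPKM in Vismodegib, against 0.254, 8.92 and 0.0883 RPKM in DMSO. It followed the muscle markers rather than Pgam1, with DMSO replicate 2 high and DMSO replicate 3 low. Mpc2, a subunit of the carrier that brings pyruvate into mitochondria, averaged 7.42 ± 1.54 RPKM in Vismodegib and 4.91 ± 0.460 RPKM in DMSO. Hk3, the hexokinase of myeloid cells, averaged 2.84 ± 1.28 RPKM in Vismodegib and 4.47 ± 0.563 RPKM in DMSO, and Lox, a collagen cross-linking oxidase, averaged 6.98 ± 2.73 RPKM in Vismodegib and 4.15 ± 1.30 RPKM in DMSO. None of these 5 genes, nor Bhlhe41, passed adjustment (limma, adjusted p = 1 for each).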

How the data were processed

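RNA from whole frozen 4T1 tumours (3 Vismodegib and 3 DMSO libraries) was sequenced in paired ends on an Illumina HiSeq, per the labels. The submitters' processing notes name bcl2fastq 2.17, cutadapt, STAR, HISAT2, SAMtools, Partek and mm10, without roles. No label, header or note used here gives the annotation or the strand setting. The authors deposited 1 table of RPKM per gene symbol, without counts.

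From these values, log2(RPKM + 0.5) was fitted, for the 11818 genes that averaged 0.5 RPKM or more, with limma 3.58.1 in R 4.3.3 (empirical Bayes with trend, Benjamini-Hochberg over all genes tested, threshold 0.05). The filter removed 1 of the 42 genes, Slc2a3, which got an exact permutation test. Depth was recovered from the steps of low values in genes with 1 transcript, where 83.6% to 85.4% of values came out as whole reads within 0.02 reads. Reads behind Slc2a3 and Car12 are estimates from this depth and the longest GENCODE M21 transcript, which may not be the length used for the RPKM. The fit was also run on simulated data with known differences and independent noise. Those data lacked the shared shifts between libraries seen here, so they cannot show how the fit handles them. Gene coordinates and near-identical copies came from GENCODE M21 and BLAST 2.17.0, and promoters from RefSeq. Alternatives were the pseudocount, filter, scaling, variance estimation, library weights, replicate block, GC content and length, and each library left out.

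Values in every library are given for the 12 genes with the smallest p, those without overlap, the highest of each role and a set of pathway landmarks, with some others added for their role. The members and lists were chosen with earlier results of these data known.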

Additional observations from a re-analysis of the deposited data

How the results depend on the processing

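Log2 differences are Vismodegib minus DMSO throughout. No setting called any of the 42 genes except library weights, which called 1 of the 41 tested, Pfkm. That fit called 420 of all 11818 genes tested and 5 of the 71 other pathway genes tested. In that fit 10 of 41 genes lay above 0. Over all genes, leaving out single libraries called 0 to 19 genes, the 19 of them without DMSO replicate 1, and the number of the 41 genes above 0 ran from 8 without Vismodegib replicate 1 to 32 without Vismodegib replicate 3. Leaving out DMSO replicate 1 and Vismodegib replicate 3 together called 2 genes. The fit with a replicate block called 1 gene, none of them among the 42. Same-numbered libraries deviated with correlations of 0, 0.04 and -0.3, and libraries of different numbers with -0.23 to 0.3. No label says whether the numbers pair samples, and correlations over 3 libraries a group cannot decide it. Across all alternatives 12 of the 41 genes kept their sign and 29 did not, and the cause was not tested.

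With median-ratio scaling, the sign turned for Hk2 at -0.038, Epas1 at -0.055, Vhl at -0.008, Ndrg1 at -0.058 and Ddit4 at -0.058. With quantile normalisation, the sign turned for Hk2 at -0.035, Epas1 at -0.075, Vhl at -0.007, Ndrg1 at -0.052 and Ddit4 at -0.023. With library weights, the sign turned for Hk2 at -0.38, Pfkfb3 at -0.13, Hif1a at -0.20, Epas1 at -0.38, Vhl at -0.042, Bnip3 at -0.46, Bnip3l at -0.28, Car9 at -0.35, Vegfa at -0.008, Ndrg1 at -0.54, Plod2 at -0.55 and Ddit4 at -0.50. Without DMSO replicate 1 and Vismodegib replicate 3 together, an alternative chosen after seeing the data, the sign turned for Gapdh at 0.079, Epas1 at -0.10, Egln3 at 0.22, Bnip3 at -0.21, Adm at 0.068, Ndrg1 at -0.20 and Ddit4 at -0.20. With a pseudocount of 0.1 RPKM, the sign turned for Epas1 at -0.005. After removing trends on GC content and gene length, the sign turned for Epas1 at -0.017, Bnip3 at -0.073, Bnip3l at -0.055, Ndrg1 at -0.021 and Ddit4 at -0.042.

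Leaving out single libraries, the log2 differences that turned had these ranges: Adm -0.48 to 0.46, Aldoc -0.12 to 0.42, Bnip3 -0.58 to 0.53, Bnip3l -0.16 to 0.48, Car12 -0.27 to 0.09, Car9 -0.044 to 0.86, Ddit4 -0.59 to 0.49, Egln1 -0.80 to 0.15, Egln3 -0.32 to 0.24, Eno1 -0.64 to 0.11, Epas1 -0.30 to 0.23, Gapdh -0.34 to 0.33, Hif1a -0.15 to 0.90, Higd1a -0.65 to 0.16, Hk2 -0.22 to 0.33, Ldha -1.07 to 0.048, Ldhb -0.21 to 0.37, Ndrg1 -0.50 to 0.45, P4ha1 -0.032 to 0.38, Pdk3 -0.007 to 0.37, Pfkfb3 -0.23 to 0.56, Pfkfb4 -0.084 to 0.57, Pfkp -0.57 to 0.024, Plod2 -0.11 to 0.62, Slc16a3 -0.076 to 0.20, Slc2a1 -0.87 to 0.19, Tpi1 -0.65 to 0.042, Vegfa -0.021 to 0.42 and Vhl -0.24 to 0.34.

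The limits are 3 libraries a group, bulk tissue in which marker sums of other cell types differed between tumours, and RPKM deposited without counts. A 2 kb transcript at 0.5 RPKM rests on 34.8 to 58.0 reads, and Slc2a3 rests on an estimated 24.2 to 87.0 reads. Reads shared with Eno1b leave Eno1 uncertain. All 41 of the 95% intervals include 0.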
